A study of Mus musculus with 2 samples.

Results

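The MHC class I presentation genes were followed as 10 genes, chosen by name from the 34295 genes of the deposited table: B2m, H2-K1, H2-D1, H2-T23, Tap1, Tap2, Tapbp, Tapbpl, Erap1 and Nlrc5. All 10 were in the table, each on a row of its own. The table held 2 RNA libraries of wild-type C57BL/6J mouse cells, 1 of embryonic fibroblasts (MEFs) and 1 of bone marrow derived macrophages (BMDMs). E13.5 to E14.4 embryos without head and red tissue gave the MEFs, which had been cleared by sorting of cells that carry CD45, CD11b or F4/80 and were used at passage 4 to 7 in DMEM with 10% serum. The macrophages were grown from marrow for 6 days in RPMI with 10% serum and 30% conditioned medium of L929 cells, a mouse fibroblast line. Each culture was plated overnight before RNA was taken, from 100000 cells for the fibroblasts, per the labels, and 750000 for the macrophages. The series was made to survey growth factors and their receptors, and class I presentation was not its stated subject.

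Class I molecules carry peptides from inside a cell to its surface, where T cells and natural killer cells inspect them. Proteasomes cut proteins into peptides, the TAP transporter moves these into the endoplasmic reticulum, an aminopeptidase trims them, and chaperones load them onto a heavy chain paired with beta-2-microglobulin. Nearly all nucleated cells do this, and interferons raise it. NLRC5 is the transcriptional coactivator of the class I genes, as CIITA is of the class II genes that serve professional antigen-presenting cells.

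Values are transcripts per 1000000 transcripts (TPM), a measure of RNA share corrected for transcript length. With 1 library per cell type there was no replicate, error or test, and TPM keep no read depth, so its limits are unknown. The size rule called a gene higher in one of the libraries when its log2 ratio of MEF over BMDM, each TPM plus 1, was at or beyond 2 or -2 (4-fold) and its higher value was at least 5 TPM. Folds, by contrast, are ratios of the TPM themselves without the added 1, so for low genes they exceed what the log2 ratio gives. Fibroblast markers (16 of 16) were higher in the fibroblast library, with summed levels of 13390.3 TPM in it and 21.9 TPM in the macrophage library. Macrophage markers (18 of 18) were higher in the macrophage library, with 55.1 TPM in the fibroblast library and 34508 TPM in the macrophage library. Cell type, embryonic or marrow origin, passage, culture medium, cell number and preparation cannot be told apart here. In bulk RNA, fewer cells that express a gene and less of its RNA per cell cannot be told apart either.

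All 10 genes had a lower value in the fibroblast library, and 7 of them passed the size rule as higher in the macrophage library. Across the table, 11191 genes reached 5 TPM in a library, of which 8.77% were called higher in the macrophage library and 14.3% in the fibroblast library. None of the 10 was called higher in MEFs. Their median log2 ratio of MEF over BMDM was -2.58, against 0.26 over those 11191 genes. Together the 10 genes held 0.171% of the fibroblast TPM and 1.20% of the macrophage TPM. The 3 genes not called were Tapbpl, Erap1 and Tap2. Tapbp, at a log2 ratio of -2.02, lay just past the threshold, and Tap2 and Erap1, at -1.89 and -1.82, just short of it.

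**Figure D1:**
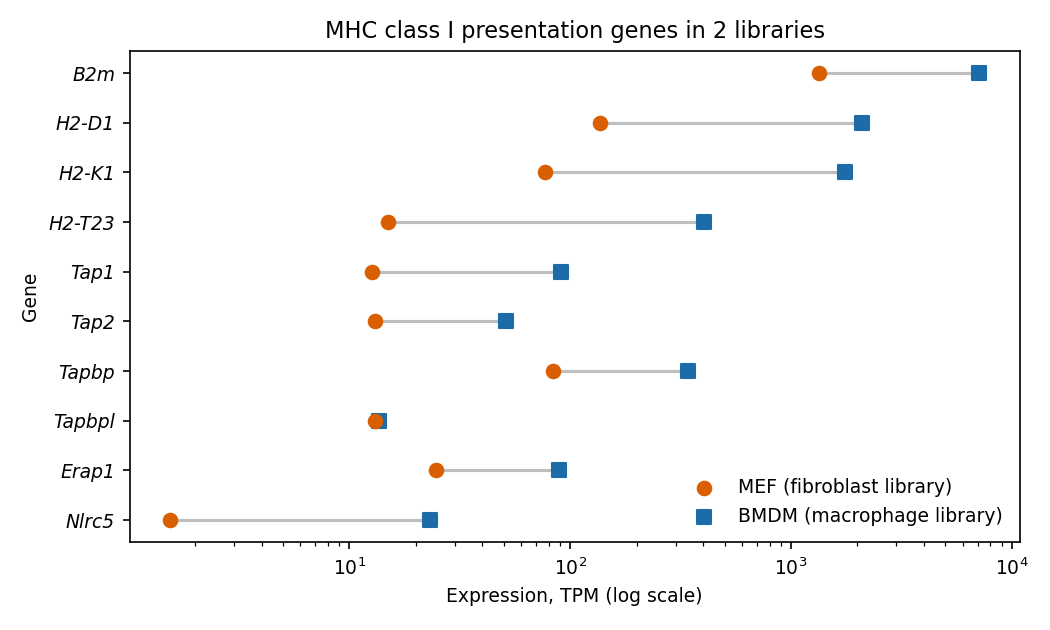
Expression of the 10 class I presentation genes in TPM on a log axis, with circles for the fibroblast library (MEF), squares for the macrophage library (BMDM) and a line joining both values of a gene. The fibroblast value lies left of the macrophage value for each gene, with almost no gap for Tapbpl (13.1 TPM in MEFs, 13.6 TPM in BMDMs) and a wide gap for H2-T23 (15.0 TPM in MEFs, 405 TPM in BMDMs).

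B2m encodes beta-2-microglobulin, the light chain shared by all classical class I molecules. It stood at 1333 TPM in MEFs and 7126 TPM in BMDMs, 5.35-fold lower in MEFs. It was the highest of the 10 genes in both libraries and ranked 121 among all genes in MEFs and 8 in BMDMs. B2m lies on chromosome 2 from 122147686 to 122153083, plus strand (GRCm38, ENSMUSG00000060802). None of the 31-base words of its longest coding transcript occurred in a transcript of another gene on the transcribed strand, and Patl2, which lies across it on the opposite strand, was listed at 0 in MEFs and at 0.0821 TPM in BMDMs. The protein-coding genes nearest to B2m in level, over the log2 values of both libraries, were Psap, Lars2 and Lgals3, with Psap at 1123 TPM in MEFs and 5756 TPM in BMDMs.

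The heavy chain genes had larger ratios than their light chain. H2-K1 and H2-D1 encode the classical heavy chains of this strain, and H2-T23 encodes that of Qa-1, which presents peptides of class I leader sequences to receptors of natural killer cells. H2-K1 (ENSMUSG00000061232) stood at 76.8 TPM in MEFs and 1752 TPM in BMDMs, a log2 ratio of -4.49 (22.8-fold lower in MEFs). H2-D1 (ENSMUSG00000073411) stood at 137 TPM in MEFs and 2093 TPM in BMDMs, a log2 ratio of -3.92 (15.3-fold lower). H2-T23 (ENSMUSG00000067212) stood at 15.0 TPM in MEFs and 405 TPM in BMDMs, a log2 ratio of -4.66 (26.9-fold lower), the largest of the 10 genes. With a pseudocount of 5 TPM in place of 1, H2-K1 (-4.43) lay ahead of H2-T23 (-4.35). In both libraries H2-D1 was the highest heavy chain gene and H2-T23 the lowest of these 3. In macrophages H2-D1 and H2-K1 ranked 50 and 67 among all genes, against 1174 and 2182 in MEFs.

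The excess of light chain RNA over heavy chain RNA was larger in MEFs. In fibroblasts the 3 heavy chain genes summed to 229 TPM, 0.172 of the B2m level. In macrophages they summed to 4249 TPM, 0.596 of the B2m level. B2m RNA thus exceeded these 3 heavy chains 5.83-fold in MEFs and 1.68-fold in BMDMs on the TPM scale, which corrects for length. Against all 28 listed heavy chain genes in the table, described below, the excess was smaller, at 4.64-fold in MEFs and 1.56-fold in BMDMs. Neither the amount of protein nor its presence at the surface was measured.

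**Figure D2:**
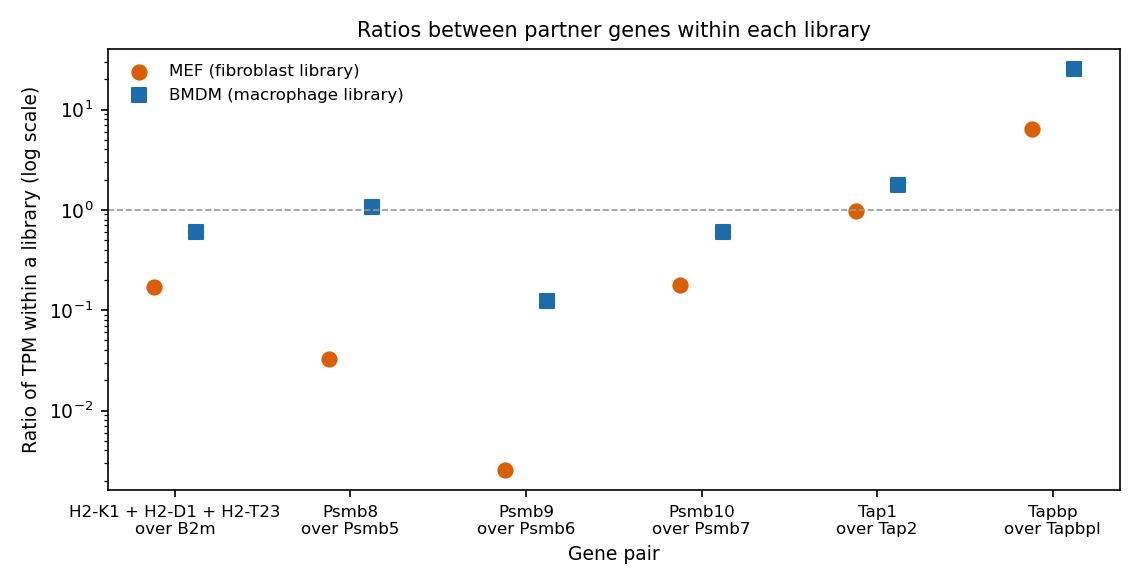
Ratios of TPM between partner genes within each library on a log axis, with circles for the fibroblast library (MEF), squares for the macrophage library (BMDM) and a dashed line at equal levels. The ratio of H2-K1, H2-D1 and H2-T23, summed, to B2m is 0.172 in MEFs and 0.596 in BMDMs. Psmb8 over Psmb5 is 0.0324 in MEFs and 1.07 in BMDMs.

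Heavy chain genes are close copies of each other, so the division of reads among them is uncertain. In the GENCODE M21 transcripts of GRCm38, 23.3% of the 31-base words of the longest coding H2-K1 transcript, 27.5% of those of H2-D1 and 48.4% of those of H2-T23 also occurred in another gene. H2-D1 was the gene that shared most with H2-K1, at 16.9% of its words, and the pseudogene H2-T-ps shared most with H2-T23, at 25.5%. A sum over the 28 listed heavy chain genes in the table rests less on single genes, but transcript lengths and unlisted copies enter it. It was 287 TPM in MEFs and 4565 TPM in BMDMs, a log2 ratio of -3.99 (15.9-fold lower in MEFs). For the other members this share was at most 5.21%, for Tapbpl.

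Among the other heavy chain genes, 25 of 27 listed were in the table and 10 reached 1 TPM in a library. Of these, 8 were higher in BMDMs and none in MEFs. The 8 included H2-K2, H2-Q5 and H2-T10, annotated as pseudogenes (polymorphic for H2-Q5 and H2-T10). H2-T10 shared 56.6% of its 31-base words with H2-T22, so its level may depend on the division of reads. The median log2 ratio, which for each list is over all its detected genes, was -3.28. Over the 13606 genes at 1 TPM or more, 7.21% were called higher in BMDMs and the median was 0.28. H2-Q4 stood at 4.73 TPM in MEFs and 72.7 TPM in BMDMs. H2-M3, whose product presents peptides with a formylated end, stood at 3.93 TPM in MEFs and 50.2 TPM in BMDMs. H2-T24 was at 1.54 TPM in MEFs and 37.6 TPM in BMDMs, and H2-Q6 at 0.108 TPM in MEFs and 17.1 TPM in BMDMs. The gene H2-T22, chosen after its values were seen, made up 15.9% of the heavy chain sum in MEFs and 2.04% in BMDMs. At 45.7 TPM in MEFs and 93.0 TPM in BMDMs it did not pass the size rule, and 63.3% of its 31-base words occurred in other genes, most of them in H2-T10. Of 6 detected class I-like genes of other chromosomal regions or functions, only the iron regulator gene Hfe was called, at 7.55 TPM in MEFs and 34.5 TPM in BMDMs.

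The promoters of the members are shown because several share the regulatory boxes known from class I genes. Class I promoters are known for a site of NF-kB, a site of interferon regulatory factors (IRF) and an X and Y box module that recruits RFX, CREB or ATF, NF-Y and NLRC5. RefSeq windows of GRCm38.p6, from 250 bases before to 50 after a start site, were matched for 7 of the 10 genes. The 180 bases before the start are printed 5′ to 3′ on the strand of each gene, with capitals for matches on either strand to the NF-kB consensus, to the IRF core AANNGAAA, to TGACG (the core of the X2 box) and to ATTGG (the core of the Y box). B2m is at chr2:122147507-122147686, plus strand, H2-K1 at chr17:34000348-34000527, minus strand (the first of 2 windows), H2-D1 at chr17:35262914-35263093, plus strand, and H2-T23 at chr17:36032702-36032881, minus strand. The GENCODE bounds of H2-D1, H2-T23, Tapbp and Erap1 begin well upstream of these RefSeq starts, for Tapbp at 33915899 against 33919478. All of the bases printed for H2-D1, and most of those for H2-T23, lie within the GENCODE bounds of the gene.
B2m: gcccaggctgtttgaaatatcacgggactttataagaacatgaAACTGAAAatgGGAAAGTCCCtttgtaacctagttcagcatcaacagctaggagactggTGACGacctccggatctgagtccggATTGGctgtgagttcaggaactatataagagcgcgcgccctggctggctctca
H2-K1: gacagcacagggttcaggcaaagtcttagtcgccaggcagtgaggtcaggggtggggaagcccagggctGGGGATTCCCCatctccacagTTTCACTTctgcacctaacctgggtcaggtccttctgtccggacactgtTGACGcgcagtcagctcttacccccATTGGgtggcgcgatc
H2-D1: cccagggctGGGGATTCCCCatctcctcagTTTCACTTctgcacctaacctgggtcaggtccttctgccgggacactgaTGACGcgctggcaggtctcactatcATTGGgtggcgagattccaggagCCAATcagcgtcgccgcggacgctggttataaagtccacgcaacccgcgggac
H2-T23: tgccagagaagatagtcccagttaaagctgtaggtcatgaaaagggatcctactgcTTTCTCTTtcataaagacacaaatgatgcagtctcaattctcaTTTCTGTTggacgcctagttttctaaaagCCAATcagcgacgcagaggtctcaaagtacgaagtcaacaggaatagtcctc

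In B2m, H2-K1 and H2-D1 the TGACG and ATTGG cores stood on the strand of the gene with exactly 20 bases between them. This spacing was seen in the members and then searched for in all 32851 RefSeq windows, of which 31 (0.0944%) held the pair on either strand. No other spacing was searched for. Among the other heavy chain genes, H2-Q7, named after the matches were seen, held both cores on its strand at another spacing. They lay at -64 to -60 (TGACG) and -40 to -36 (ATTGG) from its start. Of those genes with a window, H2-M3 alone held the pair with exactly 20 bases between. It lies at chr17:37270188-37270217, plus strand, with capitals for that pair alone.
H2-M3: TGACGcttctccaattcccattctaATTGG
The 4 class I genes with the pair had log2 ratios of -2.42 (B2m), -4.49 (H2-K1), -3.92 (H2-D1) and -3.38 (H2-M3). Beyond these genes the pair was found in genes of either direction. Of 21 detected genes whose window held it, the 4 class I genes included, 5 were called higher in BMDMs and 1 in MEFs. The median log2 ratio of the 21 was -0.0027, and the 5 were the 4 class I genes and Tecpr1. B2m, H2-K1 and H2-D1 are in this set by construction, since the spacing was taken from them, so the count does not test the pair. Over all 13606 genes at 1 TPM or more, 7.21% were called higher in BMDMs and 11.8% in MEFs, at a median of 0.28. Tecpr1 stood at 13.6 TPM in MEFs and 72.9 TPM in BMDMs, and Calu, the gene called higher in MEFs, at 913 TPM in MEFs and 97.8 TPM in BMDMs, both named after their values were seen. H2-T23, with the largest ratio, held 2 IRF cores and a Y box core in reverse but not this pair, which says only that these letters are not in its window.

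Taken singly, the boxes are common. An IRF core was found in 23.9% of all windows, TGACG in 20.8%, ATTGG in 37.4% and the NF-kB consensus in 8.46%. Of the 7 members with a window, 5 held an IRF core, 3 the NF-kB consensus, 4 TGACG and 6 ATTGG. The 3 with the NF-kB consensus were B2m, H2-K1 and H2-D1. In Erap1 the IRF core lay across the start site, on the opposite strand, and Tapbp held ATTGG only.

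**Figure D3:**
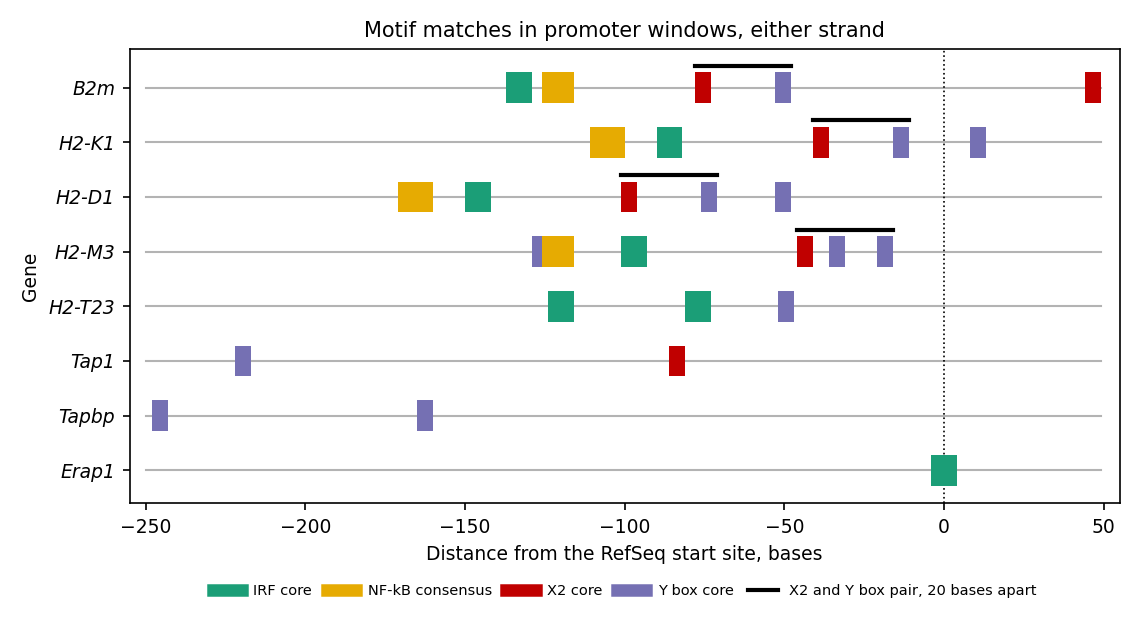
Positions of motif matches on either strand in RefSeq promoter windows, in bases from the start site, for 7 class I presentation genes and H2-M3, with colours for each motif and a black bar over an X2 and Y box pair 20 bases apart. The black bar is present in B2m, H2-K1, H2-D1 and H2-M3, and an NF-kB match is followed by IRF, X2 and Y matches in H2-K1, H2-D1 and H2-M3, which also holds other Y box cores.

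Tap1, Tap2, Tapbp, Tapbpl and Erap1, which serve peptide transport, loading and trimming, had smaller ratios than H2-K1, H2-D1 and H2-T23. Tap1 and Tap2 encode the subunits of the peptide transporter. Tap1 (ENSMUSG00000037321) stood at 12.6 TPM in MEFs and 90.5 TPM in BMDMs, a log2 ratio of -2.75 (7.17-fold lower in MEFs). Tap2 (ENSMUSG00000024339) stood at 13.0 TPM in MEFs and 50.9 TPM in BMDMs, a log2 ratio of -1.89 (3.92-fold lower). The subunits were at nearly equal RNA levels in MEFs, with Tap1 at 0.970 of Tap2, whereas in BMDMs Tap1 was at 1.78 times Tap2.

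Tapbp encodes tapasin, which holds empty class I molecules at the transporter, and Tapbpl encodes its relative TAPBPR, which edits peptides away from it. Tapbp (ENSMUSG00000024308) stood at 83.8 TPM in MEFs and 343 TPM in BMDMs, 4.09-fold lower in MEFs. Tapbpl (ENSMUSG00000038213) stood at 13.1 TPM in MEFs and 13.6 TPM in BMDMs, a log2 ratio of -0.05. Tapbpl was the member whose values lay closest together, and the ratio of Tapbp over Tapbpl was 6.40 in MEFs and 25.2 in BMDMs. Tapbp overlaps the gene Zbtb22 on the same strand over 3422 bases, and Tapbpl lies wholly within Vamp1 on the opposite strand. Zbtb22 stood at 21.3 TPM in MEFs and 19.5 TPM in BMDMs, and Vamp1 at 3.01 TPM in MEFs and 5.30 TPM in BMDMs.

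Erap1 encodes the aminopeptidase of the endoplasmic reticulum that trims peptides to class I length. It stood at 24.6 TPM in MEFs and 89.3 TPM in BMDMs, a log2 ratio of -1.82 (3.63-fold lower in MEFs), which did not pass the size rule. Erap1 lies on chromosome 13 from 74639568 to 74693201, plus strand (ENSMUSG00000021583). It overlaps Cast on the opposite strand over 834 bases, and Cast stood at 106 TPM in MEFs and 74.9 TPM in BMDMs.

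Nlrc5, the gene of the coactivator, was the lowest of the 10 in the fibroblast library. It stood at 1.54 TPM in MEFs and 23.2 TPM in BMDMs, a log2 ratio of -3.25 (15.1-fold lower in MEFs). With a pseudocount of 5 TPM in place of 1, its log2 ratio was -2.11. Nlrc5 lies on chromosome 8 from 94434356 to 94527272, plus strand (ENSMUSG00000074151), and none of its 31-base words occurred in another gene. The protein-coding genes nearest to it in level were Kif21b, Tmem243 and Guca1a, with Kif21b at 1.44 TPM in MEFs and 23.1 TPM in BMDMs. With only 2 libraries such nearness compares a pair of levels and no pattern over conditions.

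Ordered by level in MEFs, the genes ran B2m, H2-D1, Tapbp, H2-K1, Erap1, H2-T23, Tapbpl, Tap2, Tap1 and Nlrc5. In macrophages the order was B2m, H2-D1, H2-K1, H2-T23, Tapbp, Tap1, Erap1, Tap2, Nlrc5 and Tapbpl. H2-T23, Tapbpl, Tap2 and Tap1 lay between 12.6 and 15.0 TPM in MEFs, and without replicates their order there cannot be told from error. In macrophages the same 4 genes were spread from 13.6 to 405 TPM.

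Macrophage marker RNA was low in the fibroblast library. The 18 macrophage markers had a median level in MEFs of 0.132% of that in BMDMs, with a range of 0% for Aif1 to 20.8% for Mertk. Among the 10 members the lowest such share was 3.71%, for H2-T23. Neutrophil markers also were higher in the macrophage library, with 4 of 7 detected called and summed levels of 1.93 TPM in MEFs and 449 TPM in BMDMs. The 4 called were S100a9, S100a8, Ltf and Camp, at 268, 157, 12.0 and 5.17 TPM in BMDMs. In MEFs S100a8 stood at 1.85 TPM, and S100a9, Ltf and Camp were listed at 0. Mpo, Elane and Retnlg, detected but not called, stood at 2.83, 2.34 and 2.01 TPM in BMDMs. Ly6g was listed at 0 in both libraries. The detected dendritic cell markers summed to 0.0971 TPM in MEFs and 9.52 TPM in BMDMs, held by Itgax and Batf3, with Cd209a listed at 0 in both libraries and Flt3 at 0 in MEFs and 0.0803 TPM in BMDMs. Whether neutrophils or dendritic cells were present, and any part of theirs in the class I difference, was not tested. Lymphocyte markers had 1 detected gene, Cd4, at 0.0613 TPM in MEFs and 1.78 TPM in BMDMs. None of the 4 detected endothelial and epithelial markers was called.

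Genes of the class I, class II and immunoproteasome lists made up most of the genes called higher in BMDMs within the MHC. Of the 10 genes, 6 lie in the MHC on chromosome 17: Tapbp at 33915899 to 33929292, H2-K1 at 33996017 to 34000347, Tap1 at 34187553 to 34197225, Tap2 at 34203527 to 34216321, H2-D1 at 35262730 to 35267499 and H2-T23 at 36029773 to 36032855 (GRCm38, GENCODE M21), with H2-K1 and H2-T23 on the minus strand and the others on the plus strand. Of these 6, 5 were called, at a median log2 ratio of -3.34, and of the 4 genes on other chromosomes B2m and Nlrc5 were called, with a median of -2.12 over the 4. Tapbpl, on chromosome 6 from 125223933 to 125231860, minus strand, was the member with the smallest ratio. Between Tapbp and H2-M3, 90 detected genes belonged to none of the class I, class II or proteasome lists. Their median log2 ratio was 0.13, with 4 called higher in BMDMs (4.44%) and 7 in MEFs. The 4 were Gpsm3, Aif1, Lst1 and Tnf, named after their values were seen. In the same interval 8 of 10 other heavy chain genes and 5 of 8 class II genes were called higher in BMDMs. The heavy chain genes called included the annotated pseudogenes H2-K2, H2-Q5 and H2-T10.

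**Figure D4:**
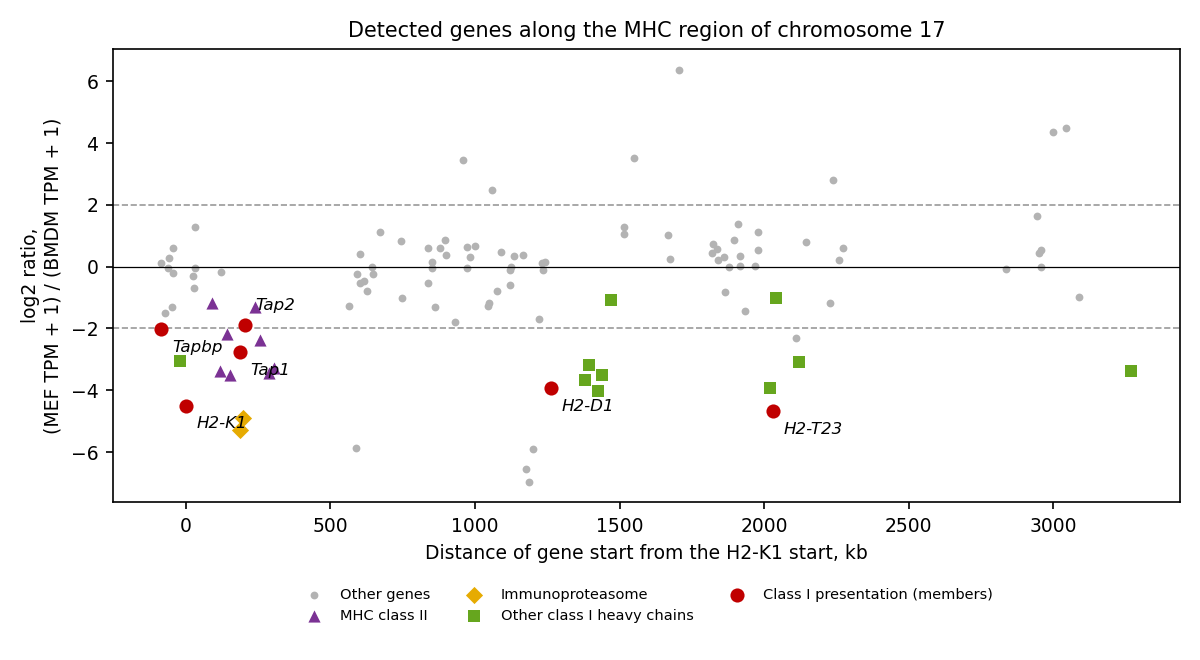
Log2 ratio of MEF over BMDM (TPM plus 1) for each detected gene along the MHC region of chromosome 17, against the distance of the gene's start from that of H2-K1 in kb, with dashed lines at the 4-fold threshold. The members (red circles), other heavy chains (green squares), class II genes (triangles) and immunoproteasome genes (diamonds) lie below 0, while the other genes (grey) scatter around a median of 0.13.

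Tap1 and Tap2 lie in a tight cluster with the immunoproteasome genes Psmb8 and Psmb9, whose subunits replace constitutive ones and change the peptides cut. By their GENCODE bounds, the 5′ ends of Psmb9 and Tap1 overlap on opposite strands. Psmb8 lies between Tap1 and Tap2, 0.495 kb from Tap1 and 2.07 kb from Tap2. Psmb9 stood at 0.717 TPM in MEFs and 66.6 TPM in BMDMs, a log2 ratio of -5.30. Psmb8 stood at 8.64 TPM in MEFs and 287 TPM in BMDMs, a log2 ratio of -4.90. The ratios of these 2 subunits were thus larger than those of the transporter genes beside them. The overlap of Psmb9 and Tap1 in GENCODE spans 212 bases, and whether the counting used strand is not given in the sources used here.

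Relative to their constitutive partners, the immunoproteasome genes were low in MEFs. Psmb8 stood at 0.0324 of Psmb5 in MEFs and at 1.07 of it in BMDMs. Psmb9 stood at 0.00256 of Psmb6 in MEFs and 0.124 in BMDMs, and Psmb10 at 0.179 of Psmb7 in MEFs and 0.608 in BMDMs. The partners themselves were not called. Psmb5 stood at 267 TPM in MEFs and 268 TPM in BMDMs, and Psmb6 at 280.5 TPM in MEFs and 535 TPM in BMDMs. Of the 5 immunoproteasome and activator genes 2 were called higher in BMDMs, at a median log2 ratio of -1.86, and of 5 constitutive proteasome genes none, with a median of 0.14.

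Tap1 and Psmb9 are transcribed away from each other, and their RefSeq start sites lie 226 bases apart, without the overlap of the GENCODE bounds. The 225 bases between them, at chr17:34187331-34187555 on the plus strand, are shown because both genes were called, with capitals for the same motifs.
Tap1 and Psmb9: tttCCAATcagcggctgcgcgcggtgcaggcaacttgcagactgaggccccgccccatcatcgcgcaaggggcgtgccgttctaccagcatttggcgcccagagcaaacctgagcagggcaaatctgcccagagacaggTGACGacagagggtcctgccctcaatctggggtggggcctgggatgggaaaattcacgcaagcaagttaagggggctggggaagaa
This stretch held TGACG in the direction of Tap1 and ATTGG in that of Psmb9, without the IRF core or the NF-kB consensus. Over the same 225 bases the genes differed in level, Tap1 with 12.6 TPM in MEFs and 90.5 TPM in BMDMs and Psmb9 with 0.717 TPM in MEFs and 66.6 TPM in BMDMs.

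Genes of the loading machinery that also serve general protein folding were not called. Of 7 loading chaperone genes none passed the rule, at a median log2 ratio of 0.37. Calr, encoding calreticulin, stood at 1501 TPM in MEFs and 1532 TPM in BMDMs, and Pdia3, encoding the disulfide isomerase ERp57, at 1008 TPM in MEFs and 704 TPM in BMDMs. Of 6 cytosolic peptidase genes, which trim or destroy peptides before transport, none was called either, with a median of 0.54. Lap3 stood at 86.5 TPM in MEFs and 38.8 TPM in BMDMs, and Nrd1 at 65.7 TPM in MEFs and 74.2 TPM in BMDMs.

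Among 16 genes of transcription factors that act at class I promoters or downstream of interferon, 4 were higher in BMDMs and none in MEFs, at a median log2 ratio of -0.73. They included the interferon signal genes Stat2, at 18.9 TPM in MEFs and 92.4 TPM in BMDMs, and Irf9, at 10.42 TPM in MEFs and 66.01 TPM in BMDMs. They also included Irf8, a myeloid lineage factor, at 0.319 TPM in MEFs and 141 TPM in BMDMs. The RFX and NF-Y subunit genes that bind the X and Y boxes were not called. Rfx5, named after its values were seen, stood at 9.59 TPM in MEFs and 6.11 TPM in BMDMs.

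Most interferon-stimulated genes were also lower in MEFs. Of 24 such genes 16 were higher in BMDMs and none in MEFs, at a median log2 ratio of -3.33. Bst2 stood at 97.9 TPM in MEFs and 1841 TPM in BMDMs, and Isg15 at 10.7 TPM in MEFs and 196 TPM in BMDMs. Irf7 and Oas1a stood at 1.63 and 0.302 TPM in MEFs and at 327 and 199 TPM in BMDMs. The interferon receptor and kinase genes were not called (0 of 7 detected, median -0.79), with Ifnar2 at 51.3 TPM in MEFs and 161 TPM in BMDMs and Jak1 at 175 TPM in MEFs and 75.3 TPM in BMDMs. Of the interferon genes, Ifng, Ifna1 and Ifna4 were listed at 0 in both libraries, and Ifnb1 at 0 in MEFs and 0.154 TPM in BMDMs. These 4 were named after their values were seen. The part of interferon signalling in the class I difference was not tested.

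**Figure D5:**
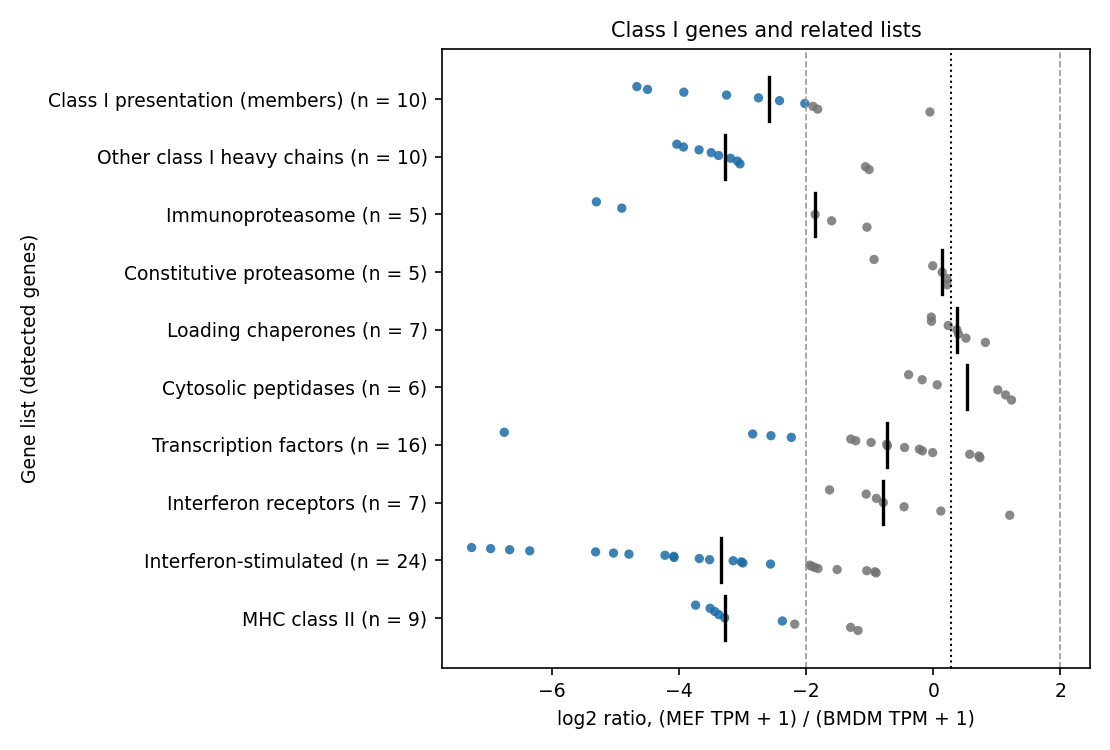
Log2 ratio of MEF over BMDM (TPM plus 1) for each detected gene of 10 lists, with blue points for genes called higher in BMDMs, grey for genes not called, black bars for list medians, dashed lines at the 4-fold threshold and a dotted line at the median of all 13606 detected genes (0.28). The class I members, other heavy chains, interferon-stimulated genes and class II genes have medians below -2, and the constitutive proteasome, chaperone and peptidase lists lie around the median of all genes.

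Class II genes had a much lower summed level than the 10 class I presentation genes. Of 9 detected class II genes 6 were higher in BMDMs. The median log2 ratio was -3.28 for the class II list and -2.58 for the 10 class I presentation genes, a difference that was not tested. The summed level of the class II genes was 14.5 TPM in MEFs and 208 TPM in BMDMs, against 1710 TPM in MEFs and 11986 TPM in BMDMs for the 10 class I presentation genes. Of the class I sums, B2m alone gave 1333 TPM in MEFs and 7126 TPM in BMDMs. H2-Aa stood at 1.06 TPM in MEFs and 21.3 TPM in BMDMs, and Cd74, the invariant chain gene, at 2.76 TPM in MEFs and 49.1 TPM in BMDMs. The peptide editor genes H2-DMa and H2-DMb1 stood at 2.06 and 4.79 TPM in MEFs and at 30.6 and 65.0 TPM in BMDMs. Gene by gene the levels overlapped. In BMDMs H2-DMb1 lay above Tap2 (50.9 TPM), Nlrc5 (23.2 TPM) and Tapbpl (13.6 TPM) and below the other members. Ciita, the class II counterpart of Nlrc5, was below 1 TPM in both libraries, at 0.0723 TPM in MEFs and 0.438 TPM in BMDMs, and was named after its values were seen.

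Genes that use or extend class I presentation were divided by gene. Among 12 listed receptors of class I molecules 2 were detected, and only Pirb was called. Pirb encodes an inhibitory receptor of myeloid and B cells that binds class I, and it stood at 0.393 TPM in MEFs and 229 TPM in BMDMs. Of 6 detected co-stimulation genes 4 were higher in BMDMs: Cd86 at 0.0758 TPM in MEFs and 19.0 TPM in BMDMs, Icosl at 0.136 TPM in MEFs and 20.1 TPM in BMDMs, Cd40 at 1.13 TPM in MEFs and 20.9 TPM in BMDMs, and Cd274, encoding the inhibitory ligand PD-L1, at 0.501 TPM in MEFs and 15.0 TPM in BMDMs. The detected co-stimulation genes not called were Cd80 and Icam1, named after their values were seen. Cd80 had the higher value in MEFs, at 32.8 TPM against 13.6 TPM in BMDMs. Icam1 stood at 22.3 TPM in MEFs and 49.1 TPM in BMDMs. Of 11 genes linked to cross-presentation, the display of taken-up antigen on class I, 4 were higher in BMDMs. These were the oxidase genes Cyba and Cybb, at 178 and 0.276 TPM in MEFs and 1506 and 160.4 TPM in BMDMs, Rac2, at 0.0990 TPM in MEFs and 152 TPM in BMDMs, and Wdfy4, at 0.0286 TPM in MEFs and 50.7 TPM in BMDMs. Their medians were -2.48 for the receptors, -3.39 for co-stimulation and -0.86 for cross-presentation. That of the receptors lies midway between 2 genes of opposite direction and describes neither. They were Pirb, at a log2 ratio of -7.37, and Klra4, at 2.40. Klra4, named after its values were seen, stood at 4.28 TPM in MEFs and was listed at 0 in BMDMs.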

How the data were processed

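Poly(A) RNA of 2 cultures was sequenced in paired reads of 76 bp with a stranded kit, per the labels' protocols. The submitters' processing notes name kallisto 0.43.1 and the build GRCm38. Which transcripts served as its index, how they were summed per gene and whether strand was used: not given in the sources used here. What the authors deposited was taken as TPM from the values themselves, since the columns sum to 999545 (fibroblasts) and 999609 (macrophages) and are not whole.

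Rows sharing a symbol were added, which made 34295 genes of 34456 rows, and 28 date-like names were kept apart by description. Computation used Python 3.11.15, pandas 2.3.3, numpy 2.4.6 and matplotlib 3.10.9. The code of the size rule was run on simulated libraries, with known folds well beyond the threshold in genes of higher level. That run does not cover differences near the threshold or in low genes. Positions and shared 31-base words, the default word length of kallisto, come from GENCODE M21, and promoters from RefSeq (GRCm38.p6). Lists were described by counts and medians over genes at 1 TPM or more. The genes named were the 10 members and, in each list, up to 4 called in each direction, taken by their higher TPM, or the 2 highest where none was called, plus the 3 genes nearest in level to B2m and to Nlrc5. Overlapping genes were named for their position, cell type markers beside the results they touch, and others are marked as chosen after their values were seen. Not every gene this rule selects is reported here. The members, lists and thresholds were chosen with earlier results of these data known. The 11 alternatives covered pseudocount, minimum, fold, scaling, duplicate rows, gene type and subtraction between libraries, and 1 more was added after the data were seen.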

Additional observations from a re-analysis of the deposited data

How the results depend on the processing

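No paired analysis was possible because each cell type had 1 library. Of the 10 members, B2m, H2-K1, H2-D1, H2-T23, Tap1 and Nlrc5 were called higher in BMDMs under both other pseudocounts and both other scalings. The other settings (minimum, looser fold, duplicate rows, gene type and subtraction) could not take these calls away. The number of members called ran from 6 to 9, with 0 in MEFs throughout. Tapbp fell short of the threshold with a pseudocount of 5 TPM (-1.97). Tap2 passed it under median-of-ratios scaling (-2.06) and under rescaling without mitochondrial and the 50 highest genes (-2.01), and both Tap2 and Erap1 passed a 2-fold rule. For the genes that reached 5 TPM in each library, the median log2 ratio without the added 1 was 0.18, which median-of-ratios scaling brought to 0.013 and the rescaling to 0.078. The log2 ratio of the heavy chain sum ran from -4.17 to -3.97, including the sum widened by close copies, chosen after seeing the data (-3.99). That of Nlrc5, the lowest member in MEFs, ran from -3.83 to -2.11 with the pseudocount.

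Over all genes, 1602 were called higher in MEFs and 981 in BMDMs. A pseudocount of 5 TPM gave 896 higher in MEFs and 652 in BMDMs, and a 2-fold rule 2637 in MEFs and 1698 in BMDMs. Over the pathway lists no gene was called higher in MEFs, against 1 (Klra4) with a minimum of 1 TPM, with no minimum and under the rescaling, and 5 under the 2-fold rule (Lap3, Thop1, Npepps, Jak1 and Cd80). Read depth is unknown, so levels near 1 TPM, as of Nlrc5 and Psmb9 in MEFs, carry an error that cannot be given.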
